A study of Mus musculus with 30 samples.

Results

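Transcripts of the synaptic vesicle and release machinery were followed in mouse forebrain after long-term antipsychotic treatment. The set was a list of 33 named genes, grouped by what their proteins do at the synapse. A gene was taken where a probe set carried its symbol alone in the platform annotation, and the probe set with the highest mean over all arrays stood for it. By this rule 29 of the 33 genes were measured, among 12393 genes with a single symbol on the array, and Rims1, Sv2b, Sv2c and Synj1 were not analysed here. All 29 had a mean above the filter on low values, a mean log2 signal of 4, which 7576 of the 12393 genes passed, and the lowest mean of the 29 was 7.02.

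The tissue was forebrain from the right side of 30 male mice of C57BL, an inbred strain, each hybridised to its own Affymetrix MOE430A array without pooling. Clozapine, an atypical antipsychotic with affinity for serotonin, dopamine and other receptors, was given to 10 mice at 12 mg/kg/day. Haloperidol, a typical antipsychotic that mainly blocks dopamine D2 receptors, was given to 10 mice at 1.6 mg/kg/day, although the protocol note beside that dose names clozapine. The other 10 mice had no drug. Drugs were taken in drinking water for 12 weeks, every mouse was housed alone, and the age is labelled as 4 weeks, which the design text appears to give for the start. One label field names the left side instead. The study was set up to compare how the drugs act on brain expression over the long term, so each drug was set against the same untreated mice and the drugs against each other.

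At a synapse, transmitter is stored in vesicles that dock at the active zone of the axon terminal. Calcium entry, sensed by synaptotagmin, triggers fusion by the SNARE proteins on vesicle and plasma membrane, and clathrin and dynamin then recover the membrane for reuse. Antipsychotic drugs block receptors for transmitters released in this way, and the same machinery serves most neurons of the forebrain.

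Array quality and array groupings bear on every value below. The 3' signal minus the 5' signal, averaged over the control probe sets of Gapdh and Actb, tends to grow as RNA breaks down. This 3' minus 5' difference was 4.09 on the log2 scale in control 1 and 2.45 in haloperidol 7. In the other 28 arrays it lay between 0.47 and 1.36. In control 1 it was 6.25 for Gapdh and 1.94 for Actb, a value that control 4, clozapine 6 and clozapine 7 exceeded, so the average of that array rested on Gapdh. In haloperidol 7 it was 1.72 for Gapdh and 3.19 for Actb. Clustering of the arrays on all tested probe sets gave 3 sets and 4 single arrays (control 1, clozapine 7, haloperidol 2 and haloperidol 7). Set A held 11 arrays (3 control, 3 clozapine and 5 haloperidol), set B held 8 (4 control, 1 clozapine and 3 haloperidol) and set C held 7 (2 control, 5 clozapine and 0 haloperidol). The sets were read from the data and are not groups of the study. They followed the replicate numbers in part: all 11 arrays of set A are numbered 1 to 6, and 7 of the 8 of set B are numbered 7 to 10. The sources used here name no batch, and what the numbers stand for is not given in them. Among marker genes, all 15 general neuronal markers passed the filter. So did 10 of 10 astrocyte, 9 of 9 oligodendrocyte and 9 of 10 microglial markers on the array, so RNA of these cell types was present. Of all genes with a single symbol, 7576 of 12393 passed. The counts for endothelial (6 of 10), choroid plexus (5 of 8) and cerebellar markers (5 of 9) were near that share and do not by themselves show those cells. Striatal and cortical markers passed in 8 of 8 each and olfactory bulb markers in 8 of 9. Below the filter were all 3 blood markers on the array and, among others, the cerebellar Pcp2 and Gabra6.

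No release gene passed the test for either drug, and most differences between group means were small. In forebrain tissue, fewer cells that express a gene and less RNA per cell cannot be told apart. With limma and Benjamini-Hochberg adjustment over all 12944 tested probe sets, 0 of 29 genes were called at an adjusted p under 0.05 in clozapine against control, in haloperidol against control or in clozapine against haloperidol. The same call covered 0% of all tested probe sets in each comparison. At an unadjusted p under 0.05, 0 of 29 genes passed for clozapine against control beside 4.35% of all tested probe sets, and 0 of 29 for haloperidol against control beside 2.3%. Between the drugs 2 of 29 passed that looser threshold, Pclo and Syt4, beside 3.14% of all tested probe sets. Over the 29 genes and all 3 comparisons, the smallest limma adjusted p was 0.965, reached between the drugs. In none of the 3 comparisons did the values of any release gene separate the groups without overlap, which was also true of 0% of all tested probe sets.

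The median difference of the release genes lay within 0.1 of 0 on the log2 scale in each comparison. Clozapine minus control was above 0 for 12 genes and below 0 for 17, with a median of -0.012 beside 0.022 over all tested probe sets. Haloperidol minus control was above 0 for 8 genes and below 0 for 21, with a median of -0.084 beside -0.030. That balance turned with the array sets as a block, where 16 of 29 were above 0 (median 0.020), and within set B, where 19 were (median 0.035). Within set A 12 of 29 were above 0 (median -0.0046), and with array weights 5 were (median -0.16). Clozapine minus haloperidol was above 0 for 19 genes and below 0 for 10, with a median of 0.033 beside 0.050. Of all 12944 tested probe sets, 7153 were above 0 for clozapine minus control, 5636 for haloperidol minus control and 7858 for clozapine minus haloperidol. These comparisons share groups, so they are not independent. The difference was under 0.2 on the log2 scale in either direction for 24 genes with clozapine against control, 26 with haloperidol against control and 21 between the drugs.

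A missed threshold does not show equal expression, and the intervals state what the arrays could exclude. The 95% confidence interval reached to either side of the estimate by a median of 0.38 over the 29 genes, or 1.31-fold, and ran from 0.21 for Syt11 to 1.74 for Cplx2. For 26 genes the interval of clozapine minus control lay within 2-fold in either direction, and for 20 within 1.5-fold. The counts were 27 and 20 for haloperidol minus control, and 26 and 19 for clozapine minus haloperidol. In the plot of differences, the widest intervals belong to Cplx2, Syt1 and Syn2.

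**Figure D1:**
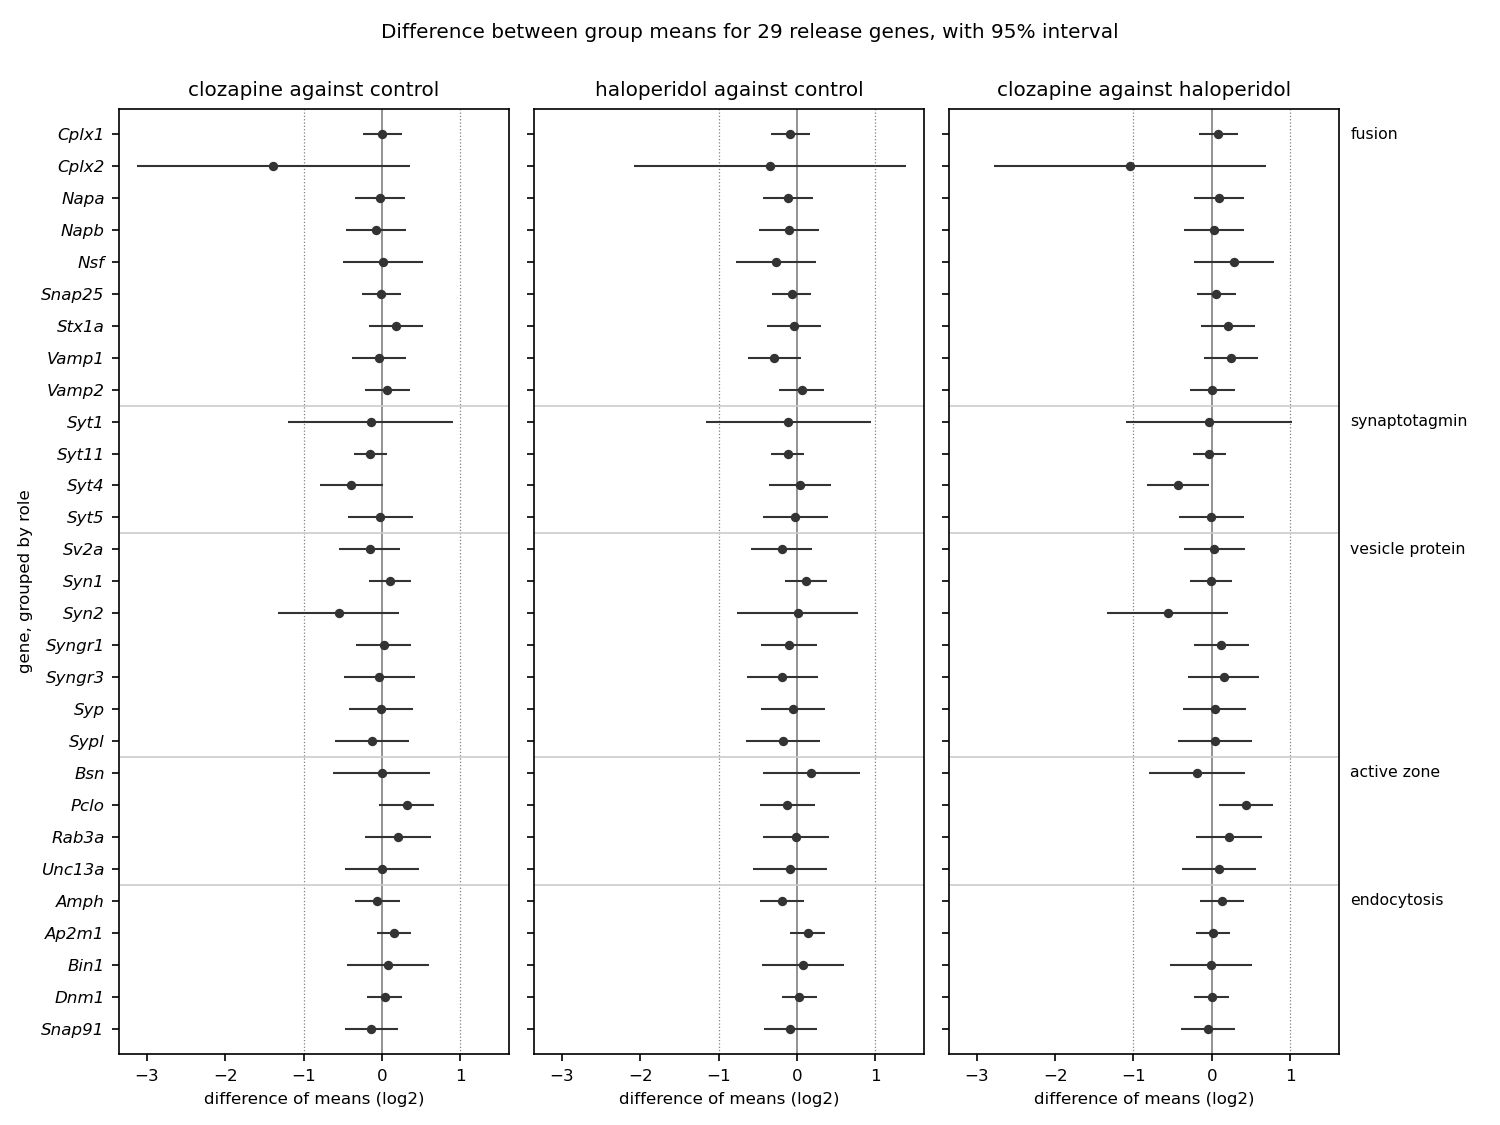
Difference between group means for 29 release genes in the 3 comparisons, on the log2 scale, with bars for the 95% confidence interval of the limma fit of 30 arrays, genes grouped by role and dotted lines at 2-fold. Most intervals include 0 and stay within 2-fold, Cplx2 has the widest (1.74 to either side), and in clozapine against haloperidol the interval of Pclo lies above 0 and that of Syt4 below 0.

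The fusion proteins come first: Snap25, Stx1a, Vamp1 and Vamp2 are SNARE proteins, Cplx1 and Cplx2 are complexins that clamp and promote fusion, and Nsf with Napa and Napb takes spent SNARE complexes apart. Of these 9 genes, 4 had a higher mean with clozapine than in control and 1 with haloperidol than in control. Between the drugs 8 were higher with clozapine, and 0 of 9 were called in any comparison. Of all 12944 tested probe sets, 7153, 5636 and 7858 were higher in these 3 comparisons. Those counts belong beside each count by role, here and below. Snap25, the SNARE of the plasma membrane, ran from 12.75 to 13.56 in control with a median of 13.25, from 12.88 to 13.44 with clozapine with a median of 13.24, and from 12.54 to 13.50 with haloperidol with a median of 13.05. Snap25 averaged 13.18 ± 0.27 in control, 13.17 ± 0.20 with clozapine and 13.11 ± 0.29 with haloperidol (SD, n = 10 each). The 3 groups overlapped over nearly their whole range. Its difference was -0.0048 for clozapine minus control, -0.065 for haloperidol minus control and 0.060 for clozapine minus haloperidol (SE 0.12 each), with unadjusted limma p of 0.969, 0.599 and 0.627.

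Stx1a, the plasma membrane partner of Snap25, ran from 10.05 to 10.82 in control (median 10.40), 10.01 to 11.28 with clozapine (median 10.63) and 9.87 to 11.22 with haloperidol (median 10.39). Stx1a averaged 10.43 ± 0.24 in control, 10.60 ± 0.42 with clozapine and 10.39 ± 0.44 with haloperidol (SD, n = 10 each). Of the clozapine arrays 4, all of set C, lay above every control, as did haloperidol 2 and haloperidol 7, and the groups otherwise overlapped. Stx1a differed by 0.18 between clozapine and control (SE 0.17, unadjusted limma p = 0.300), by -0.035 between haloperidol and control (p = 0.836) and by 0.21 between the drugs (p = 0.216). Vamp2, the main vesicle SNARE of the forebrain, ran from 10.77 to 11.95 in control (median 11.81), 11.41 to 11.86 with clozapine (median 11.65) and 11.08 to 12.07 with haloperidol (median 11.64). Vamp2 averaged 11.58 ± 0.40 in control, 11.65 ± 0.14 with clozapine and 11.64 ± 0.32 with haloperidol (SD, n = 10 each). The lowest value of all was that of control 1, and the drug groups lay within or near the control range. Vamp2 differed by 0.071, 0.063 and 0.0085 in the 3 comparisons, taken as before in the order clozapine minus control, haloperidol minus control and clozapine minus haloperidol (SE 0.14 each, p = 0.617, 0.659 and 0.953).

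Vamp1, its paralog, had the smallest p of the 21 genes that were lower with haloperidol than in control. It ran from 9.46 to 10.52 in control (median 10.16), 9.60 to 10.83 with clozapine (median 9.93) and 9.34 to 10.28 with haloperidol (median 9.89). Vamp1 averaged 10.13 ± 0.36 in control, 10.09 ± 0.40 with clozapine and 9.84 ± 0.36 with haloperidol (SD, n = 10 each). The haloperidol values reached below the lowest control and all stayed below the highest. The difference of haloperidol from control was -0.29 (SE 0.17, 95% interval -0.63 to 0.057, unadjusted limma p = 0.099), that of clozapine from control -0.038 (p = 0.824) and that between the drugs 0.25 (p = 0.150). Within set A the difference of haloperidol from control was -0.17 and within set B -0.25.

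Cplx2 was the most variable gene of the list. It ran from 6.56 to 11.43 in control (median 9.78), from 2.65 to 10.93 with clozapine (median 7.70) and from 6.36 to 11.11 with haloperidol (median 9.88). Cplx2 averaged 9.39 ± 1.59 in control, 8.00 ± 2.57 with clozapine and 9.04 ± 1.73 with haloperidol (SD, n = 10 each). High and low arrays stood in every group, and the value of 2.65, in clozapine 7, lay far below the next, 6.51. Cplx2 differed by -1.39 between clozapine and control (SE 0.85, 95% interval -3.13 to 0.35, p = 0.114), by -0.34 between haloperidol and control (p = 0.689) and by -1.04 between the drugs (p = 0.231). Without the 4 single arrays the first of these was -0.76 and the last -0.45. The other complexin, Cplx1, differed by 0.0033, -0.083 and 0.086 (SE 0.12 each).

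Nsf, the ATPase that separates SNARE complexes, differed by 0.015, -0.27 and 0.28 (SE 0.25 each). Its adaptor Napa differed by -0.022, -0.12 and 0.096 (SE 0.16) and the brain form Napb by -0.076, -0.10 and 0.029 (SE 0.19). None of these was larger than 2 SE, and in each the values of the groups overlapped. The probe sets of Napb did not go the same way. One with a mean of 10.81 differed by 0.092, -0.29 and 0.38 (SE 0.15 each). Its unadjusted limma p between the drugs was 0.019 (limma adjusted p = 0.965). Further Napb probe sets differed by -0.60 (SE 0.72), -0.53 (SE 0.96) and -0.21 (SE 0.24) between the drugs.

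The 4 synaptotagmins of the set were Syt1, Syt4, Syt5 and Syt11, and 0 of 4 were called. By the probe set chosen for it, each had a lower mean with clozapine than in control or with haloperidol. Other probe sets of Syt4 and Syt11 did not share that direction, as given below. Syt1, the calcium sensor for fast release, ran from 7.19 to 12.06 in control (median 11.25), 8.90 to 11.80 with clozapine (median 11.01) and 8.01 to 12.12 with haloperidol (median 11.31). Syt1 averaged 10.95 ± 1.46 in control, 10.81 ± 0.80 with clozapine and 10.84 ± 1.28 with haloperidol (SD, n = 10 each). The groups overlapped, and the lowest arrays were control 1 and haloperidol 7. Syt1 differed by -0.14, -0.11 and -0.035 (SE 0.52 each, p = 0.783, 0.835 and 0.946).

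Syt4, a synaptotagmin that binds calcium poorly and is found on dense-core vesicles and at postsynaptic sites, had the smallest p of the genes lower with clozapine. It ran from 9.47 to 10.26 in control (median 9.99), 8.70 to 10.39 with clozapine (median 9.81) and 8.73 to 10.38 with haloperidol (median 10.09). Syt4 averaged 9.96 ± 0.22 in control, 9.57 ± 0.56 with clozapine and 10.00 ± 0.46 with haloperidol (SD, n = 10 each). Clozapine 7, clozapine 8, clozapine 9 and clozapine 10 lay below every control, while haloperidol 2 was the only low array of its group. The difference was -0.39 for clozapine minus control (SE 0.19, 95% interval -0.79 to 0.0082, p = 0.055), 0.042 for haloperidol minus control (p = 0.830) and -0.43 for clozapine minus haloperidol (95% interval -0.83 to -0.034, p = 0.034, limma adjusted p = 0.965). Clozapine was below the haloperidol mean in 8 of 10 arrays.

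Of the 4 clozapine arrays with low Syt4, 3 lay in set C, which held 5 clozapine arrays and 0 haloperidol arrays, and clozapine 7 stood alone. Without haloperidol 2 the difference between the drugs was -0.57 (p = 0.002). Within set A the difference was -0.030 for clozapine minus control (SE 0.22) and -0.14 for clozapine minus haloperidol (SE 0.20). Within set C it was -0.39 for clozapine minus control (SE 0.22). With the sets as a block, clozapine minus haloperidol was -0.18 (p = 0.247). A lower-signal probe set of Syt4 differed by 0.019 and 0.062 in the clozapine comparisons (SE 0.22 each), so the probe sets did not go the same way.

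Of the other synaptotagmins, Syt11, which does not act as a calcium sensor, ran from 10.08 to 11.02 in control (median 10.65), 10.18 to 10.80 with clozapine (median 10.45) and 10.26 to 10.78 with haloperidol (median 10.49). Syt11 averaged 10.60 ± 0.24 in control, 10.46 ± 0.18 with clozapine and 10.49 ± 0.20 with haloperidol (SD, n = 10 each). Every drug-treated value lay within the control range. It differed by -0.15, -0.11 and -0.033 (SE 0.10 each, p = 0.165, 0.279 and 0.750), with clozapine below the control mean in 9 of 10 arrays. Another Syt11 probe set, with a mean of 10.46, differed by 0.018, -0.24 and 0.26 (SE 0.52 each). A further one differed by 0.011, -0.24 and 0.25 (SE 0.35 each). In the clozapine comparisons their signs were thus opposite to that of the chosen probe set, with wider SE. Syt5 differed by -0.021, -0.017 and -0.0044 (SE 0.20 each).

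Vesicle membrane and vesicle-coating proteins were 9 of the listed genes and 7 of those measured. Of the 7, 2 were higher with clozapine than in control, 2 with haloperidol than in control and 5 with clozapine than with haloperidol, with 0 called. Syp, synaptophysin, an abundant vesicle membrane protein, ran from 11.32 to 13.04 in control (median 11.99), 11.59 to 12.57 with clozapine (median 11.96) and 11.26 to 13.16 with haloperidol (median 11.92). Syp averaged 12.04 ± 0.50 in control, 12.02 ± 0.30 with clozapine and 11.99 ± 0.52 with haloperidol (SD, n = 10 each). The highest value of each group came from control 1, clozapine 7 and haloperidol 2, all single arrays. Syp differed by -0.012, -0.050 and 0.037 (SE 0.20 each, p = 0.951, 0.804 and 0.852).

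Syn1, a synapsin that tethers vesicles in the reserve pool, ran from 10.28 to 11.14 in control (median 10.68), 10.47 to 10.96 with clozapine (median 10.85) and 10.42 to 11.57 with haloperidol (median 10.76). Syn1 averaged 10.66 ± 0.27 in control, 10.77 ± 0.19 with clozapine and 10.77 ± 0.36 with haloperidol (SD, n = 10 each). The 2 highest values were those of haloperidol 2 and control 1. It differed by 0.11, 0.11 and -0.0054 (SE 0.13 each, p = 0.414, 0.391 and 0.968).

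Syn2, the second synapsin, ran from 9.67 to 12.04 in control (median 11.44), 9.43 to 11.74 with clozapine (median 10.42) and 8.62 to 12.05 with haloperidol (median 11.45). Syn2 averaged 11.18 ± 0.78 in control, 10.63 ± 0.83 with clozapine and 11.19 ± 1.02 with haloperidol (SD, n = 10 each). The low control and clozapine values were those of set C and clozapine 7, and the lowest of all was haloperidol 7. The difference was -0.55 for clozapine minus control (SE 0.38, 95% interval -1.32 to 0.22, p = 0.157) and -0.56 for clozapine minus haloperidol (p = 0.149), with 0.011 for haloperidol minus control (p = 0.977). Within set A clozapine minus control was -0.25 and within set C 0.31, and with the sets as a block it was -0.012. Without haloperidol 7 clozapine minus haloperidol was -0.85 (p = 0.013). The other probe set of Syn2 differed by -0.092, -0.17 and 0.079 (SE 0.25 each), so its clozapine minus haloperidol difference had the opposite sign.

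Sv2a, a vesicle glycoprotein that binds levetiracetam, differed by -0.16, -0.19 and 0.033 (SE 0.19 each). Syngr1 and Syngr3, the synaptogyrins, differed by 0.021, -0.10 and 0.12 (SE 0.17) and by -0.033, -0.18 and 0.15 (SE 0.22). Sypl, a synaptophysin-like protein also found outside neurons, differed by -0.13, -0.18 and 0.046 (SE 0.23).

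At the active zone, Rab3a, Bsn, Pclo and Unc13a were measured, and 3 of 4 were higher with clozapine than in control, 1 of 4 with haloperidol than in control and 3 of 4 with clozapine than with haloperidol. Pclo, Piccolo, a giant scaffold of the release site, had the smallest p of all 29 genes. It ran from 9.66 to 10.79 in control (median 10.16), 10.14 to 10.75 with clozapine (median 10.53) and 8.72 to 10.84 with haloperidol (median 10.08). Pclo averaged 10.16 ± 0.32 in control, 10.47 ± 0.21 with clozapine and 10.04 ± 0.53 with haloperidol (SD, n = 10 each). All 10 clozapine values lay inside the control range, 9 of them above the control mean, and haloperidol 2 was far below the other haloperidol arrays. Clozapine minus haloperidol was 0.44 (SE 0.17, 95% interval 0.089 to 0.78, p = 0.016, limma adjusted p = 0.965), clozapine minus control 0.31 (95% interval -0.033 to 0.66, p = 0.074) and haloperidol minus control -0.12 (p = 0.481).

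Without haloperidol 2, Pclo differed by 0.29 between the drugs (p = 0.034). Within set A, where both drugs had arrays, that difference was 0.13 (SE 0.14), and with the sets as a block it was 0.16 (p = 0.123). Clozapine minus control was 0.27 within set A, 0.25 within set C and 0.25 with the sets as a block. The lower-signal probe set of Pclo differed by -0.14 for clozapine minus control and by -0.30 for clozapine minus haloperidol (SE 0.32 each), in the opposite direction.

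Rab3a, the small GTPase of vesicle docking, ran from 10.12 to 11.73 in control (median 11.30), 10.77 to 11.87 with clozapine (median 11.42) and 10.49 to 11.86 with haloperidol (median 10.94). Rab3a averaged 11.14 ± 0.51 in control, 11.35 ± 0.35 with clozapine and 11.13 ± 0.53 with haloperidol (SD, n = 10 each). Each group spread over more than 1 log2 unit and the 3 overlapped. Rab3a differed by 0.21, -0.012 and 0.22 (SE 0.21 each, p = 0.323, 0.953 and 0.295). Bsn, Bassoon, the second giant scaffold, ran from 5.16 to 8.05 in control (median 6.87), 6.22 to 7.35 with clozapine (median 7.05) and 5.93 to 8.03 with haloperidol (median 7.24). Bsn averaged 6.96 ± 0.93 in control, 6.95 ± 0.35 with clozapine and 7.14 ± 0.70 with haloperidol (SD, n = 10 each). The clozapine values lay inside the range of the control values. Bsn differed by -0.0022, 0.18 and -0.19 (SE 0.30 each, p = 0.994, 0.547 and 0.542). Unc13a, the Munc13 priming factor, differed by 0.0026, -0.089 and 0.091 (SE 0.23 each).

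The genes of vesicle recovery were Dnm1, Amph, Bin1, Snap91 and Ap2m1, of which 3 of 5 were higher in each of the 3 comparisons and 0 were called. Dnm1, the dynamin that pinches off neuronal vesicles, ran from 11.72 to 12.71 in control (median 12.29), 12.00 to 12.55 with clozapine (median 12.28) and 11.98 to 12.67 with haloperidol (median 12.32). Dnm1 averaged 12.26 ± 0.28 in control, 12.30 ± 0.15 with clozapine and 12.30 ± 0.22 with haloperidol (SD, n = 10 each). Control arrays spanned the values of both drug groups. Dnm1 differed by 0.035, 0.034 and 0.0012 (SE 0.11 each, p = 0.752, 0.760 and 0.991).

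Ap2m1, a subunit of the clathrin adaptor AP-2, had the smallest p of the genes higher with haloperidol than in control. It ran from 10.71 to 11.52 in control (median 11.12), 10.86 to 11.59 with clozapine (median 11.26) and 10.79 to 11.69 with haloperidol (median 11.26). Ap2m1 averaged 11.12 ± 0.22 in control, 11.28 ± 0.22 with clozapine and 11.26 ± 0.23 with haloperidol (SD, n = 10 each). The drug groups lay slightly above control and overlapped it. Ap2m1 differed by 0.15, 0.14 and 0.015 (SE 0.11 each, p = 0.168, 0.214 and 0.888).

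Amph, amphiphysin, which binds dynamin and AP-2, ran from 9.46 to 10.63 in control (median 10.13), 9.43 to 10.40 with clozapine (median 10.03) and 9.39 to 10.19 with haloperidol (median 9.96). Amph averaged 10.07 ± 0.33 in control, 10.01 ± 0.30 with clozapine and 9.88 ± 0.27 with haloperidol (SD, n = 10 each). It differed by -0.057, -0.19 and 0.13 (SE 0.14 each, p = 0.684, 0.186 and 0.354), with the groups overlapping. Bin1, its paralog, which also shapes membranes, differed by 0.077, 0.081 and -0.0048 (SE 0.26), and Snap91, the clathrin assembly protein AP180, by -0.13, -0.084 and -0.050 (SE 0.17).

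**Figure D2:**
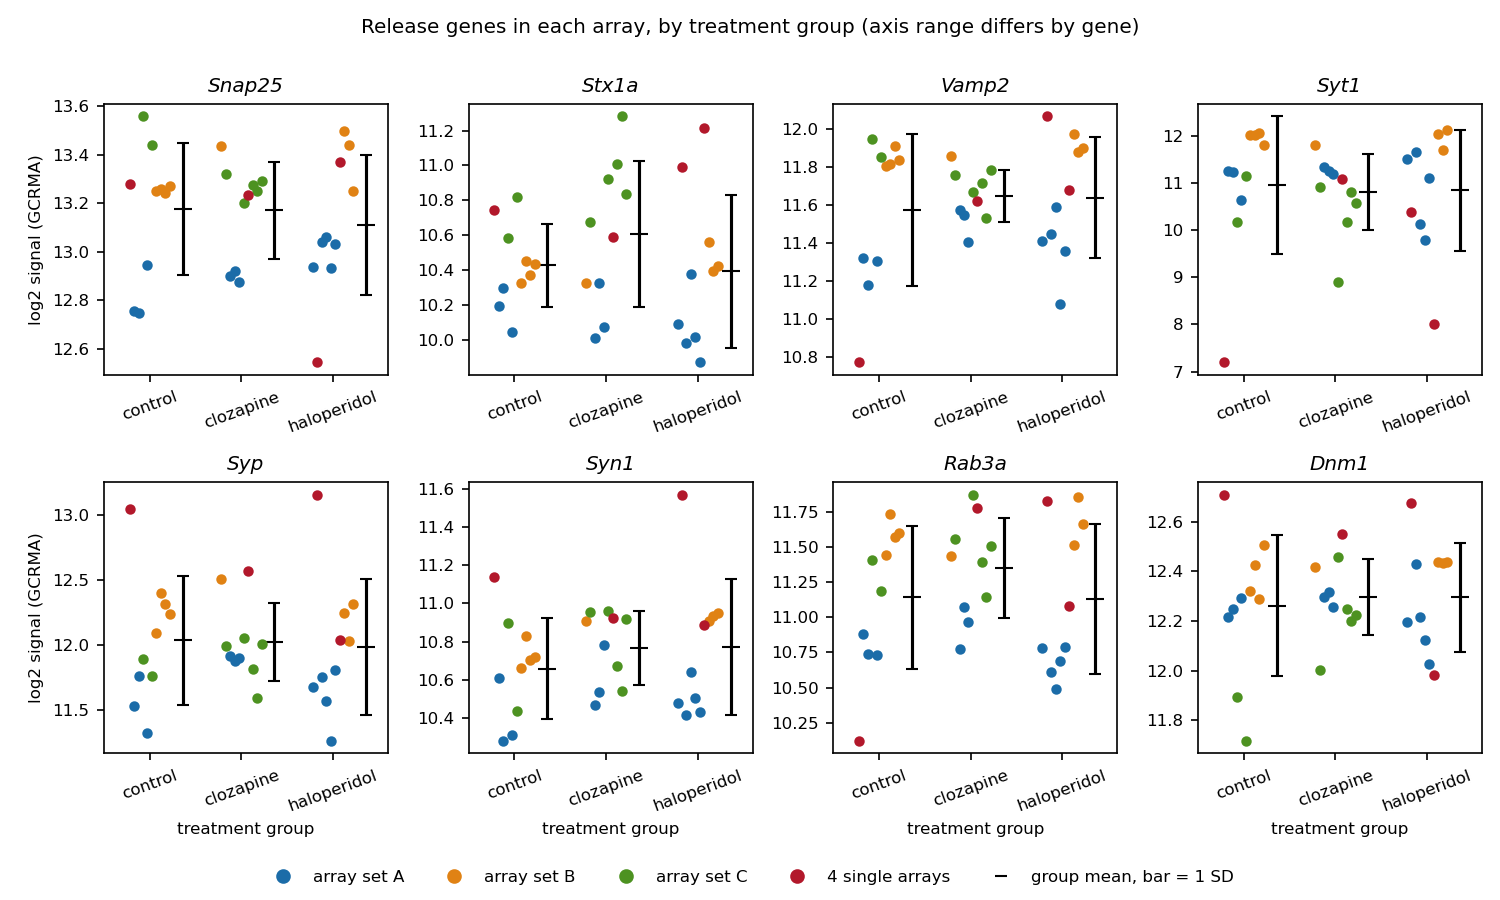
Log2 signal of 8 release genes in each of 30 arrays by treatment group, coloured by array set, with a bar for the group mean and 1 SD (n = 10 per group) and an axis range that differs between genes. Within each treatment the arrays of set A lie below those of sets B and C for Snap25 and Rab3a, and the group means lie close together.

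Probe sets of the same gene did not always go the same way. Of the 29 genes, 19 had more than 1 probe set, and 52 of the 56 probe sets passed the filter. Differences of opposite sign, apart by more than the SE, were seen in at least 1 comparison for Syn2, Syt4, Vamp1, Napa, Nsf, Pclo, Syngr1 and Sypl. The widest gap was at Syngr1, where the chosen probe set differed by 0.021 between clozapine and control and another by -0.95 (SE 0.48). Napa differed by -0.022 and its other probe set by 0.24 (SE 0.15).

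Array weights in limma favour arrays whose values stay close to the mean of their own treatment group. A fit with these weights gave the only release genes called for a drug among the settings tried. In clozapine against control, 2 of 29 genes were called, beside 13.4% of all tested probe sets (1731). They were Pclo, higher by 0.41 (SE 0.10, limma adjusted p = 0.0132), and Syt4, with a difference of -0.53 (SE 0.15, limma adjusted p = 0.0255). The 4 highest weights, from 3.44 to 4.86, were those of control 7, control 8, control 9 and control 10, all of set B, while the next was 1.69 and the lowest 0.14. With the same weights 0% of all tested probe sets and 0 of 29 genes were called in the other 2 comparisons.

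Other genes of the vesicle cycle gave a similar picture. Of 120 listed genes outside the set (other SNAREs, synaptotagmins, Rab3 proteins, transmitter transporters, adaptors and dynamins), 95 were on the array, 82 were tested and 0 were called in each comparison. At an unadjusted p under 0.05, 3 of 82 passed for clozapine against control (1 higher, 2 lower) beside 4.35% of all tested probe sets. The counts were 2 of 82 for haloperidol against control (both lower) beside 2.3%, and 4 of 82 between the drugs (3 higher, 1 lower) beside 3.14%. For clozapine against control the smallest p belonged to Syt3 (0.48, SE 0.22), Sncb (0.50, SE 0.27) and Doc2a (0.29, SE 0.19) among the higher genes and to Rab3c (-0.61, SE 0.27), Dnm3 (-0.67, SE 0.30) and Ap2b1 (-0.67, SE 0.34) among the lower. For haloperidol against control they were Snap29 (0.23, SE 0.17), Vamp8 (0.20, SE 0.15) and Lin7b (0.29, SE 0.23), and Stx12 (-0.30, SE 0.14), Slc17a6 (-0.47, SE 0.23) and Stx7 (-0.33, SE 0.18). Between the drugs Sncb, which encodes beta-synuclein, was higher with clozapine by 0.74 (SE 0.27), Slc17a6, the vesicular glutamate transporter VGLUT2, by 0.56 (SE 0.23) and Stx12 by 0.28 (SE 0.14), while Stx6 (-0.27, SE 0.13), Vti1b (-0.32, SE 0.20) and Dnm3 (-0.49, SE 0.30) were lower.

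Release genes differed between array sets more than between treatments. Treatment accounted for a median of 2.63% of the variance of a release gene over 30 arrays (range 0.0443% for Syt5 to 20.6% for Pclo), beside 4.74% over all tested probe sets. Over the 26 arrays of sets A, B and C, set membership took a median of 57.2% of the variance left within treatments, from 17.6% for Cplx2 to 88.1% for Nsf, beside 39.0% over all tested probe sets. The sets were defined from expression, so these shares are a description with no test. Clustering again without the release probe sets placed all 435 pairs of arrays alike. Release probe sets were only 52 of the 12944 tested, so leaving them out could hardly change the sets. That result therefore cannot show that the sets are independent of the release genes.

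In set B nearly the whole list stood above set A. The mean was higher in B than in A for 25 of 29 genes, beside 56.3% of all tested probe sets, with a median difference of 0.45 beside 0.078. In C it was higher than in A for 21 of 29, beside 58.7%, with a median of 0.37 beside 0.10, and higher than in B for 5 of 29, beside 56.3%, with a median of -0.14 beside 0.049. The values of A and B did not overlap for 15 of 29 genes, beside 21.6% of all tested probe sets, those of A and C for 7 beside 10.2%, and those of B and C for 5 beside 8.62%.

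Nsf showed the pattern most clearly. It averaged 11.37 ± 0.26 (SD) over the 11 arrays of set A, 12.56 ± 0.032 over the 8 of set B and 12.39 ± 0.22 over the 7 of set C, and set A did not overlap either of the others. Rab3a averaged 10.77 ± 0.16, 11.60 ± 0.15 and 11.44 ± 0.24, and Snap25 12.92 ± 0.10, 13.33 ± 0.11 and 13.33 ± 0.12, again with set A apart. Syngr1 and Syngr3 were likewise lower in set A than in sets B and C with no overlap.

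Some release genes went another way. Syn2 was highest in set A, at 11.67 ± 0.46, followed by 11.37 ± 0.14 in set B and 10.08 ± 0.30 in set C. Syt1 was highest in set B, at 11.94 ± 0.15, and lower in A (11.01 ± 0.58) and C (10.39 ± 0.75). Syt4 averaged 10.01 ± 0.12, 10.22 ± 0.13 and 9.34 ± 0.48 in A, B and C. Ap2m1, at 11.37 ± 0.13, 11.15 ± 0.071 and 11.06 ± 0.23, and Napb, at 11.69 ± 0.22, 11.42 ± 0.11 and 11.46 ± 0.34, were lower in B and C than in A.

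**Figure D3:**
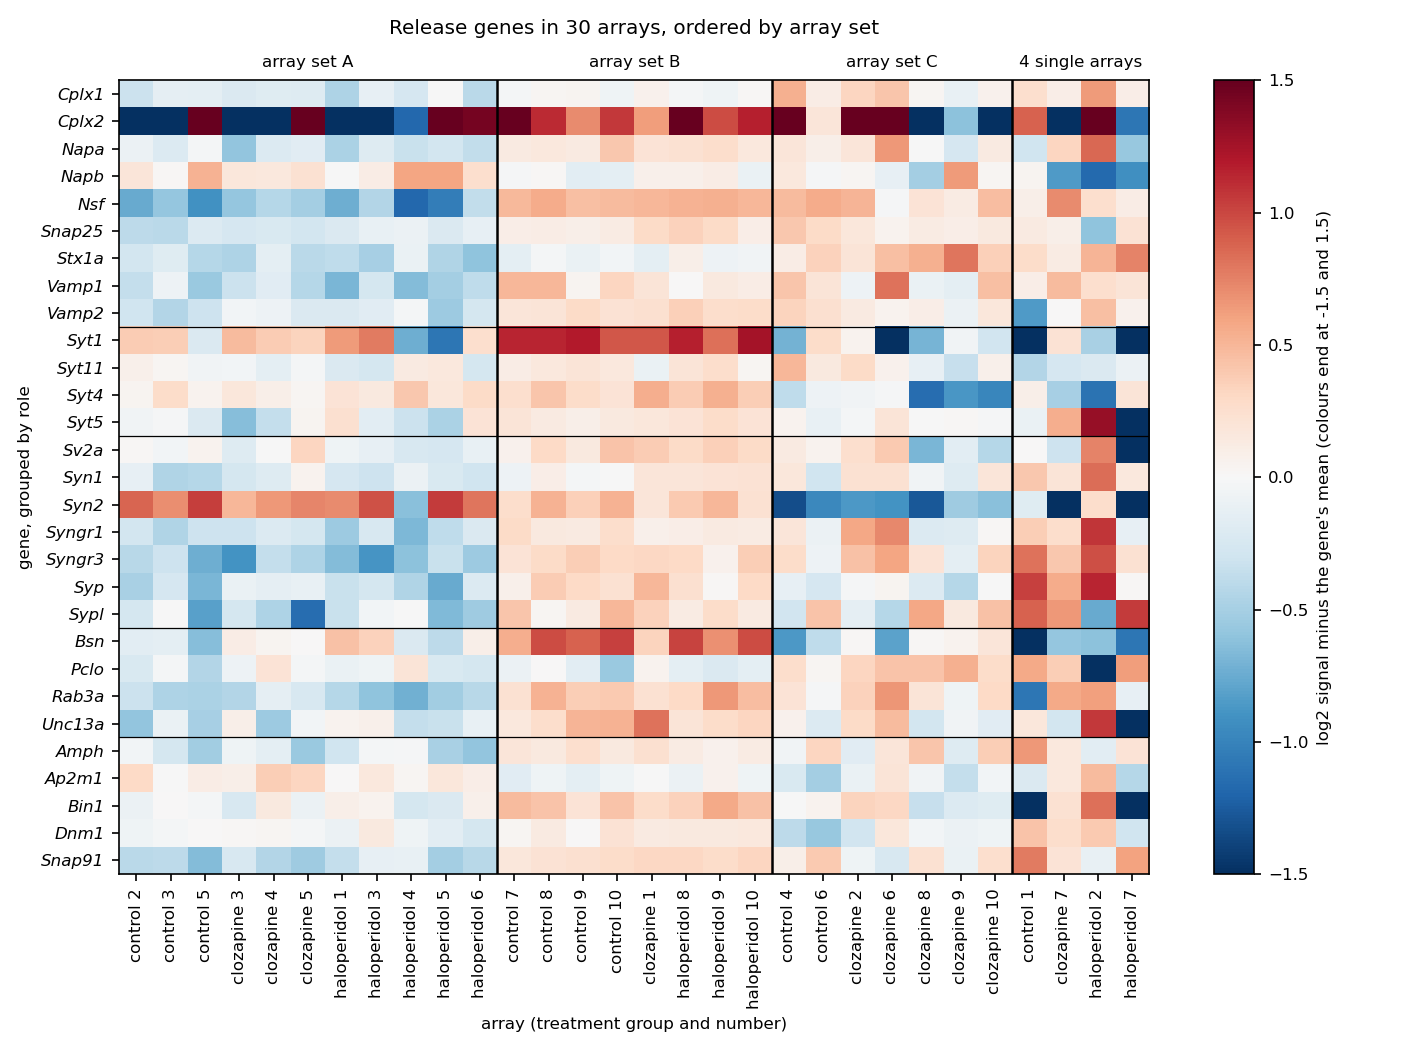
Log2 signal of 29 release genes in 30 arrays as the deviation from each gene's mean over all arrays, with arrays ordered by array set and treatment and genes by role. Set A is below the mean for most genes and set B above it, Syn2 is below the mean throughout set C, and control 1, haloperidol 2 and haloperidol 7 each deviate in their own way.

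Other markers moved between the sets as well, and their part in the release genes was not tested. General neuronal markers outside the vesicle cycle had a median difference of 0.49 for B minus A and 0.24 for C minus A over 15 genes. Oligodendrocyte markers gave 0.44 and 0.31 over 9 genes and choroid plexus markers 0.36 and 0.54 over 5, while astrocyte markers gave 0.039 and -0.0082 over 10 and striatal markers -0.057 and 0.035 over 8. The log2 of the summed signal of the neuronal list ran from 14.47 to 14.61 in set A, 14.90 to 15.01 in set B and 14.74 to 14.95 in set C. It ran from 14.52 to 15.05 in control, 14.51 to 15.08 with clozapine and 14.47 to 15.19 with haloperidol. These ranges overlapped, but the median was 14.90 in control, 14.84 with clozapine and 14.63 with haloperidol. Between treatments the median difference of the neuronal list was -0.013 for clozapine minus control, -0.14 for haloperidol minus control and 0.062 for clozapine minus haloperidol. The 3' minus 5' difference averaged 0.64 ± 0.11 in set A, 0.60 ± 0.15 in B and 1.06 ± 0.22 in C. It was not balanced over the treatments either. It ran from 0.62 to 1.24 with clozapine. With haloperidol it ran from 0.47 to 0.76, apart from haloperidol 2 (1.10) and haloperidol 7 (2.45). Most clozapine arrays lay above that range. In control it ran from 0.47 to 1.36, apart from control 1 (4.09). With this difference as a covariate, 0 of 29 release genes were called in each drug comparison.

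Many release genes varied together over the arrays. After the treatment means were removed, the 406 pairs of 29 genes had a median Pearson r of 0.21 over 30 arrays, beside 0.016 for all tested probe sets, and r was at least 0.5 in 89 pairs (21.9% beside 11.8%). Without control 1, haloperidol 2 and haloperidol 7 the median was 0.34 over 27 arrays, and with the array sets removed it was 0.076. All pairs share the same arrays and their normalization, so these values are a description. The tested probe sets also include many of lower signal than the release genes, and the part of signal level was not tested.

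Snap91 and Amph, both of clathrin-coated vesicle formation, had the highest coefficient, 0.90, which was 0.76 with the array sets removed. Syn1 and Syngr3 followed with 0.89 (0.57 with sets removed) and Syt1 and Bsn with 0.89 (0.72). The lowest were those of Syn2 with Stx1a (-0.75), Snap25 with Ap2m1 (-0.75) and Sypl with Ap2m1 (-0.67). With the sets removed these came to -0.16, -0.20 and -0.37.

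Paralogs were not alike. Syngr1 and Syngr3 had an r of 0.85, Vamp1 and Vamp2 0.58, Cplx1 and Cplx2 0.40 and Syp and Sypl 0.34. Napa with Napb (-0.44), Syn1 with Syn2 (-0.35), Bsn with Pclo (-0.29) and Amph with Bin1 (-0.26) lay below 0. The Amph and Bin1 value was 0.31 without control 1, haloperidol 2 and haloperidol 7, but below 0 again with the array sets removed, so its sign depended on the setting. With the array sets removed, Vamp1 with Vamp2 came to 0.033, Syp with Sypl to -0.024, Syngr1 with Syngr3 to 0.46 and Cplx1 with Cplx2 to 0.53. Of the pairs below 0, Napa with Napb came to -0.14, Syn1 with Syn2 to -0.23, Bsn with Pclo to -0.051 and Amph with Bin1 to -0.29. Of the SV2 family only Sv2a was measured.

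**Figure D4:**
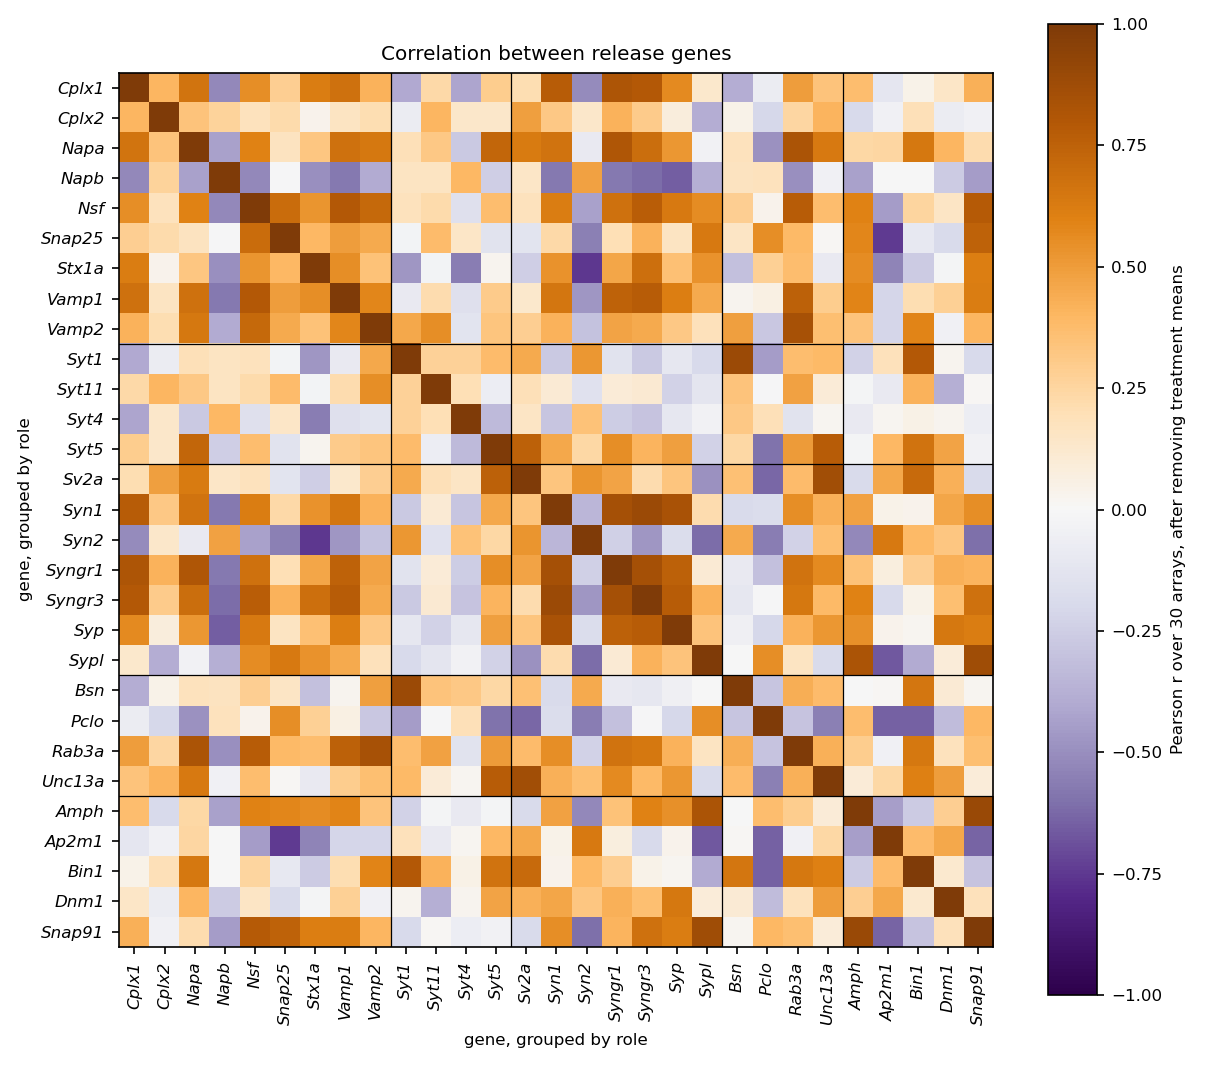
Pearson r between 29 release genes over 30 arrays after removal of the treatment means, genes grouped by role. Apart from Napb, the fusion genes are positive with Syn1, Syngr1, Syngr3 and Rab3a, the highest value of all is Snap91 with Amph at 0.90, and Napb, Pclo and Syn2 run against many others.

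Promoter windows are shown for the genes of the 3 pairs with the highest coefficients, so that the sequences of genes that varied together most can be compared. Windows run from 250 bases before to 50 bases after the annotated start, from RefSeq on GRCm38.p6, and 23 of the 29 genes had at least 1 (27 windows in all), the others being Syt4, Syt5, Snap25, Vamp2, Syngr3 and Bin1. Capitals mark matches, on either strand, to a cyclic AMP response element (TGACGTCA), a GC box (GGGCGG), an EGR site (GCGGGGGCG) or the left part of the RE1 element (CAGCACC) bound by the repressor REST. The lines give Snap91 at chr9:86880659-86880958 (minus strand), Amph at chr13:18948101-18948400 (plus strand), Syt1 at chr10:109010926-109011225 (minus strand, the first of 2 windows), Bsn at chr9:108190334-108190633 (minus strand) and Syn1 at chrX:20920869-20921168 (minus strand).
Snap91: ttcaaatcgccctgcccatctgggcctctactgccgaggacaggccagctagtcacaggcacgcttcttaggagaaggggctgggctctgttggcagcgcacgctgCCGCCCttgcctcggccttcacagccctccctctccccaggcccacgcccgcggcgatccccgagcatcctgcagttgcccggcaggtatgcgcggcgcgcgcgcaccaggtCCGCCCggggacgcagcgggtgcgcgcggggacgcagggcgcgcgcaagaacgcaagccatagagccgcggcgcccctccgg
Amph: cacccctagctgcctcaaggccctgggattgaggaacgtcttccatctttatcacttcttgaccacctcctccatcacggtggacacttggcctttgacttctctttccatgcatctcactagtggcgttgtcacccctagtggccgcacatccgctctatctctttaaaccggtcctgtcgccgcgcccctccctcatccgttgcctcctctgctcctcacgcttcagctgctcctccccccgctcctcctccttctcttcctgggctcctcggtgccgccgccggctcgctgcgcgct
Syt1: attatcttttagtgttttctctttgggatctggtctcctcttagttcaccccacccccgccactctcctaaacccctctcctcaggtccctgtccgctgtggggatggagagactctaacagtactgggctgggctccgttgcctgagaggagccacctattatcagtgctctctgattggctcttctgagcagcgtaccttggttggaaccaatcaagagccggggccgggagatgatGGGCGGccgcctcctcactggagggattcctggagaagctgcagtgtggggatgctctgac
Bsn: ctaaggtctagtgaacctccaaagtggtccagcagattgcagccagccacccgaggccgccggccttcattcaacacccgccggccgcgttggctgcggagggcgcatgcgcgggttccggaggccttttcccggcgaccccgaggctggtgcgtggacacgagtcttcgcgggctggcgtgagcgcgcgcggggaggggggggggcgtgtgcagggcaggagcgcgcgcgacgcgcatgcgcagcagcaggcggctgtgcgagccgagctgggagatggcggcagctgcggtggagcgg
Syn1: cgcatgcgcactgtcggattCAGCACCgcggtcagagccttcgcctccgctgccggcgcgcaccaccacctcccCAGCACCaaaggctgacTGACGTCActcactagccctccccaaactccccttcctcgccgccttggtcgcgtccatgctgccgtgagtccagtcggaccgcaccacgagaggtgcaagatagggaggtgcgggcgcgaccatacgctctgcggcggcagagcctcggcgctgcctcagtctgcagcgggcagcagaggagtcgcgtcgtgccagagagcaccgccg

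The Snap91 window held 2 GC boxes, that of Syt1 1 GC box, and that of Syn1 a cyclic AMP response element with 2 RE1 left parts, while the windows of Amph and Bsn held none of the 4 motifs. Snap91 with Amph and Syt1 with Bsn therefore shared no searched motif within these windows, which says only that these letters are not in both. Over the 27 windows of the release genes, a GC box stood in 66.7% beside 35.7% of all 32851 windows, a cyclic AMP response element in 7.41% beside 1.79% (Napa and Syn1), an EGR site in 11.1% beside 2.91% (Cplx1, Syn2 and Syngr1) and the RE1 left part in 11.1% beside 7.14% (Napa, Syn1 and Unc13a). An EGR match followed by G also holds a GC box, so these motifs can overlap. The median GC content was 62.3% in the release windows beside 52.7% in all. A match is a description of letters and not a binding site.

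The share of release genes with a slope on RNA quality was near that of the array as a whole. In a fit of treatment means plus the 3' minus 5' difference, 11 of 29 genes were called at a limma adjusted p under 0.05, beside 36.9% of all tested probe sets. Of the 11, 7 rose (23.6% of all tested probe sets did) and 4 fell (13.3% did) as the difference grew. This balance turned under other settings: after quantile normalization 4 rose and 6 fell, and without control 1 3 rose and 7 fell. Syt1 fell by 1.41 per log2 unit of the difference (SE 0.16), Bsn by 0.71 (SE 0.12), Bin1 by 0.66 (SE 0.091) and Syn2 by 0.63 (SE 0.19). Snap91 rose by 0.28 (SE 0.085), Sypl by 0.35 (SE 0.12), Amph by 0.21 (SE 0.072) and Stx1a by 0.26 (SE 0.088), and Pclo, Syp and Syngr3 were the other genes that rose.

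The count of called genes depended on a few arrays. Without control 1, haloperidol 2 and haloperidol 7, 4 of 29 genes were called (Syn2, Syt1 and Bsn falling, Pclo rising), beside 7.67% of all tested probe sets. In the main fit Syn2, Syt1 and Bsn were also lower and Pclo higher with clozapine than in control or with haloperidol. For Bsn the difference from control was only -0.0022. The part of RNA quality in those drug differences was not tested. Leaving out haloperidol 7 alone left 4 of 29 beside 21.2%, and control 1 alone 10 of 29 beside 30.7%. With the array sets as a block 0 of 29 were called beside 0.247%. At an unadjusted limma p under 0.05, 4 of 29 passed beside 1332 of all 12944 tested probe sets. Each single array was a block of its own in that fit, so control 1 and haloperidol 7 gave nothing to the slope. The slope then rested on the smaller differences within the sets, and whether the sets account for it was not tested.

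**Figure D5:**
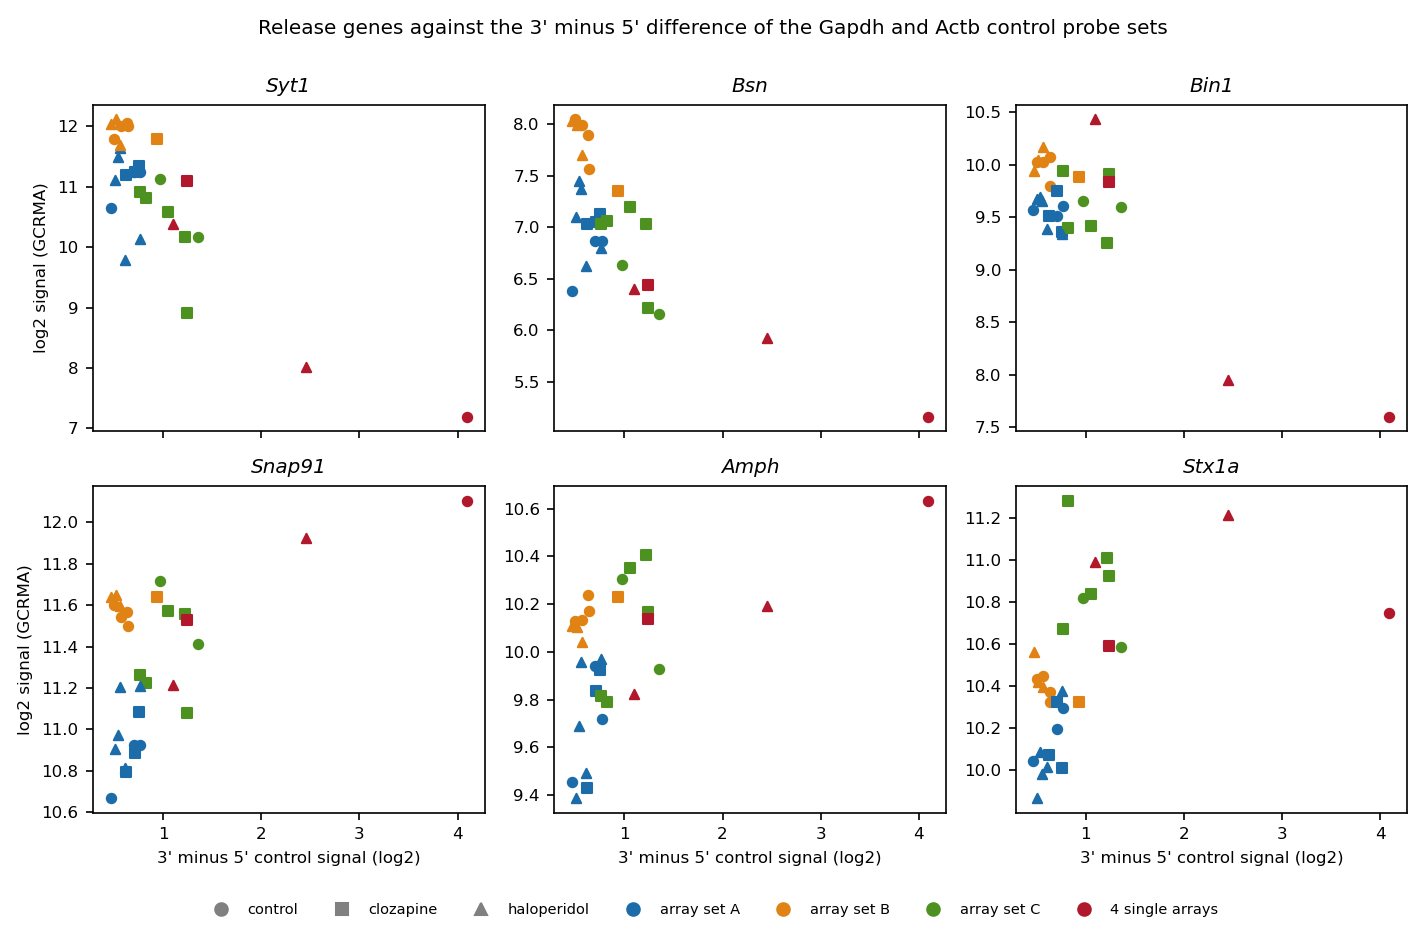
Log2 signal of 6 release genes against the 3' minus 5' difference (log2) averaged over the Gapdh and Actb controls in 30 arrays, with marker shape for treatment and colour for array set. Syt1, Bsn and Bin1 are lowest in control 1 and haloperidol 7, the arrays with differences of 4.09 and 2.45, and Snap91 is highest there.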

How the data were processed

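Forebrain RNA of 30 mice was hybridised to 30 arrays, 10 per group, and the number of arrays limits the precision. The deposited values are log2 signals from GCRMA, which the authors ran before deposit, per the submitters' processing notes. Its version was not given in the sources used here. Array medians ran from 4.63 to 4.88. Groups and replicate numbers were taken from the sample titles. The file held 22690 probe sets, of which 64 were controls. Of the other 22626, 20380 carried 1 gene symbol in the platform annotation, 691 several and 1555 none, and genes were named only from the first kind.

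Testing was limited to the 12944 probe sets whose mean reached 4. Group means were fitted to all 30 arrays in a single limma 3.58.1 fit in R 4.3.3 (lmFit and eBayes, two-sided tests, residual degrees of freedom 27). P-values were adjusted by Benjamini-Hochberg over those probe sets, and calls were made at an adjusted p under 0.05. The same procedure was used with the 3' minus 5' difference as a covariate. It was also run on simulated data of independent, normally distributed values. Those data held no array sets and no outlying arrays, so that run cannot show how the procedure behaves where arrays group as they do here. Arrays were clustered by average linkage on 1 minus Pearson r into 7 clusters, of which 4 held a single array. Where the array sets were a block or were removed, each single array was a block of its own and had no part in the result. Promoter windows came from RefSeq.

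The member genes, gene lists and tests were chosen with earlier results of these data known. In each comparison the 3 genes with the smallest p in each direction were described in full, together with Snap25, Stx1a, Vamp2, Syt1, Syp, Syn1, Rab3a and Dnm1. Others were given by difference and SE. Other vesicle-cycle genes were named by the 3 smallest p in each direction, slopes by the 4 smallest and pairs by the 3 highest and 3 lowest coefficients. Alternatives covered the normalization, the filter, the arrays used, array weights, blocks for array cluster and replicate number, RNA quality and the choice of probe set. The rule for pairing was that every same-number pair of arrays correlates over 0.1 in its deviations from the group means. Of 30 pairs 17 did, so the replicate numbers were not treated as pairing the samples. A rule that every pair must meet cannot exclude a weaker link between same-number arrays. The median correlation was 0.16 for the same number and -0.13 for other numbers.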

Additional observations from a re-analysis of the deposited data

Results flagged for a closer look

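In each treatment group of 10 arrays, the highest or lowest array was compared with its nearest neighbour, for 29 genes and 3 groups, or 87 groups of values. A value far from the rest of its group by Dixon's criterion was found 13 times. The criterion is met by about 1 in 20 groups of independent, normally distributed values, whereas these genes share the same arrays. The share over all tested probe sets was not computed, so the count cannot be read as particular to the release genes. Of the 13, 5 came from haloperidol 2, 4 from haloperidol 7, 2 from control 1, 1 from clozapine 7 and 1 from control 5.

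Haloperidol 2 was the highest haloperidol array for Syn1 (11.57, next 10.95), Cplx1 (11.96, next 11.42) and Syngr1 (11.43, next 10.49). It was the lowest for Syt4 (8.73, next 9.99) and for Pclo (8.72, next 9.96), the genes with the smallest p between the drugs. Haloperidol 7 was the lowest of its group for Syn2 (8.62, next 10.38), Sv2a (9.23, next 10.61), Unc13a (6.84, next 8.29) and Bin1 (7.96, next 9.34).

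Control 1 was the lowest control for Syt1 (7.19, next 10.16) and for Bin1 (7.60, next 9.51). Clozapine 7 was the lowest clozapine array for Cplx2 (2.65, next 6.51), and control 5 the highest control for Napb (11.96, next 11.61). The 3' minus 5' difference was 4.09 in control 1 and 2.45 in haloperidol 7, wider than in any other array, and the part of RNA quality in these values was not tested.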

How the results depend on the processing

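Each drug comparison was repeated under 17 or 18 other settings. The main fit called 0 probe sets in each comparison, so it held no call that could reverse. With array weights, clozapine against control gave 1731 called probe sets and 2 release genes, and the cause was not tested. Within array set A, 1 probe set was called in each of the 3 comparisons, and with the sets as a block 1 for haloperidol against control, none a release gene. With the replicate number as a block, 0 probe sets were called in each comparison by limma, with 846, 540 and 642 at an unadjusted p under 0.05 beside 563, 298 and 406 without it, although the numbers do not meet the rule for pairing (4 of 30 arrays were closest to their own number). The sign of the difference was kept in every setting for 5, 5 and 11 of the 29 genes, and it changed in at least 1 setting for the others. Values moved by over 1 SD for Vamp1 as the mean of its probe sets (-0.44) and Dnm1 within set C (0.42), both clozapine minus control. For the slope on RNA quality, the sets as a block left 32 probe sets and 0 release genes called. That fit takes no slope from control 1 or haloperidol 7, each a block of its own. Leaving out control 1, haloperidol 2 and haloperidol 7 left 993 and 4. Leaving out 1 of control 1 or haloperidol 7 left 2750 to 3969 probe sets and 4 to 10 release genes. These single-array settings for the slope and the setting without all 4 single arrays were chosen after seeing the data.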
